A study of Homo sapiens with 15 samples.

Results

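Genes whose products write, erase or act on histone lysine methylation were followed as RNAs that came down with the chromatin remodeler Brg1 or with the RNA-binding protein Sfpq. The set holds 42 autosomal genes picked by name: 18 writers (methyltransferases, SET-domain proteins of that family and the cofactors RBBP5 and ASH2L), 13 subunits of the Polycomb complexes, and 11 erasers (demethylases). Each gene can have a row under its symbol, called plain here, and a row with the suffix .primary, whose meaning the labels do not state. The members took 80 of the 22542 rows measured in 22Rv1 (42 plain and 38 .primary) and 79 of the 22169 rows in LNCaP (41 plain and 38 .primary). NSD1, PHF19, CBX8 and KDM1A were read from a plain row alone in 22Rv1. In LNCaP this held for NSD1, BMI1 and KDM1A, and PHF19 was not analysed. All 80 and all 79 rows had a mean share of at least 1 read in every 1000000 of the library, the filter on low values.

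RNA immunoprecipitation followed by sequencing was done in 22Rv1 and LNCaP, established human prostate cancer lines, without any treatment. Cells were fixed in formaldehyde, protein was pulled down with an antibody against Brg1 (the product of SMARCA4), against Sfpq, or with non-specific IgG, and the RNA was sequenced after ribosomal depletion beside input RNA that had not been precipitated. In 22Rv1 there were 2 Brg1, 2 Sfpq, 3 IgG and 2 input libraries, and in LNCaP 2 Brg1, 2 IgG and 2 input libraries. The labels give the libraries the letters A, B and C but do not say whether they came from separate cultures. P-values thus measure only spread between libraries, which may be technical, and the fits estimate it in part or wholly from other rows.

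Methylation of histone H3 marks active and silent chromatin: the KMT2 and SETD1 enzymes methylate H3K4 at promoters and enhancers, SETD2 and NSD1 methylate H3K36, DOT1L methylates H3K79, and SETDB1 and the EHMT pair methylate H3K9 in silent chromatin. Polycomb repressive complex 2, built on EZH1 or EZH2 with EED, SUZ12 and RBBP4, methylates H3K27, and Polycomb repressive complex 1, with RING1 or RNF2 and a PCGF protein such as BMI1, ubiquitinates histone H2A. Brg1 is the motor of SWI/SNF remodelers, which oppose Polycomb on chromatin, and Sfpq is a nuclear protein of paraspeckles that takes part in transcription and splicing. Some Polycomb proteins, EZH2 and JARID2 among them, are themselves known to bind RNA; here it is their own transcripts that were counted.

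Values are read shares in RPM, reads in every 1000000 reads recovered from a library. Every deposited value was a whole multiple of the smallest positive value of its library, so dividing by that value gave reads. Libraries of Brg1, Sfpq and input held 6367908 to 47871438 reads, in which 1 read is worth 0.0209 to 0.157 RPM. The 22Rv1 IgG libraries held 490879 to 4424105 reads, and the LNCaP IgG libraries 22184 and 46297. Over all genes, .primary rows took 65.7% and 62.7% of the reads in Brg1, 38.2% and 34.8% in input, 27.5% and 33.4% in Sfpq and 39.1% to 62.5% in IgG of 22Rv1. In LNCaP they took 50.8% and 60.5% in Brg1, 42.3% and 35.2% in input, and 66.9% and 66.8% in IgG. The part of these differences in the results was not tested. Of 10 luminal prostate markers, 7 were read in 22Rv1, at 4.49 to 39.4 RPM in input (KLK3, KLK2 and FOLH1 were not analysed there), and 10 in LNCaP, at 149 to 1457. Of 11 markers of other cell types, 2 were read in 22Rv1 (COL1A1 and SYP, at 17.6 to 20.3 RPM) and 4 in LNCaP (at 2.13 to 33.7), and their part in the results was not tested.

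The plain rows of the writers carried the largest difference between precipitates. Their 18 rows summed to 2666 and 2810 RPM in input, 7442 and 7359 in Sfpq, 1514 and 1646 in Brg1, and 1943, 2672 and 3575 in IgG of 22Rv1. Sfpq lay above every other library and Brg1 below every other library. Plain rows of the Polycomb genes summed to 648 and 696 in input, 1044 and 896 in Sfpq, 428 and 449 in Brg1, and 362, 474 and 805 in IgG. For the erasers the plain sums were 807 and 837 in input, 1546 and 1510 in Sfpq, 546 and 561 in Brg1, and 460, 670 and 1051 in IgG. In each role the 2 Sfpq libraries were above and the 2 Brg1 libraries below both inputs, while the IgG libraries spread across them.

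The .primary rows went another way. The 11 Polycomb .primary rows summed to 826 and 733 in input, 1095 and 1025 in Brg1, 584 and 748 in Sfpq, and 487 to 1031 in IgG. The 10 eraser .primary rows summed to 679 and 585 in input, 906 and 886 in Brg1, 642 and 834 in Sfpq, and 493 to 850 in IgG. Both Brg1 libraries were above both inputs in these 2 roles, but single rows made up a large part of the sums. JARID2.primary alone held 213 and 194 in input and 513 and 480 in Brg1, and KDM4B.primary 130 and 110 against 329 and 335. In limma 3 of the 11 Polycomb and 3 of the 10 eraser .primary rows rose, and 2 and 0 fell (adjusted p under 0.05). Of all .primary rows 50.9% rose and 9.48% fell. The Brg1 sums were above every IgG library for the erasers, but for the Polycomb genes IgG replicate B (1031) lay between them. The 17 writer .primary rows summed to 1721 and 1543 in input, 1774 and 1753 in Brg1, and 1160 and 1381 in Sfpq. The Brg1 sums were within the range of the IgG libraries, 1677 to 1816. Both Sfpq sums were below every input and IgG library.

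**Figure D1:**
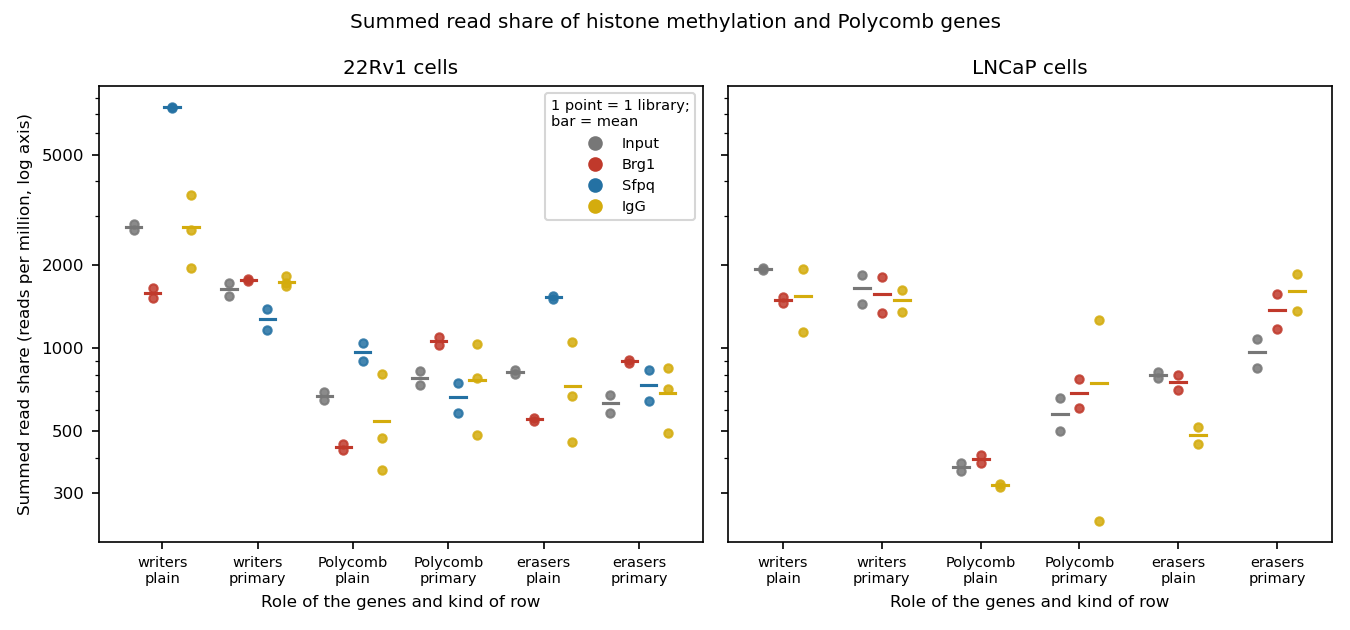
Summed read share (RPM, log axis) of the writer, Polycomb and eraser genes, plain and .primary rows apart, in 22Rv1 (left) and LNCaP (right); each point is 1 library and each bar a group mean. The plain writer rows of the 2 Sfpq libraries stand at 7442 and 7359, above all other 22Rv1 libraries, and the Brg1 libraries are the lowest there.

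Sfpq against input asks which RNAs had a larger share in the Sfpq precipitate than in input RNA. Of the 42 plain rows, 33 rose in Sfpq and 0 fell (limma, Benjamini-Hochberg adjusted p under 0.05 over all rows; 35 rows had an unadjusted p under 0.05). Of all plain rows 37.9% rose and 20.1% fell. The members' median log2 fold change was 0.84, against 0.22 over all plain rows. All fold changes are of log2(share + 0.5 RPM). Writers rose in 16 of 18 plain rows (median 1.26), erasers in 9 of 11 (median 0.80) and Polycomb genes in 8 of 13 (median 0.49).

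Among the writers, KMT2A, the H3K4 methyltransferase rearranged in leukemias, moved most. Its plain row, from a gene at chr11:118436492-118526832 (GRCh38), had 294 and 344 RPM in input and 1213 and 1151 in Sfpq, with 165, 495 and 462 in IgG and 192 and 203 in Brg1. The Sfpq libraries overlapped no other group. The log2 fold change against input was 1.89 (SE 0.14, limma adjusted p 2.07e-07). Against IgG it was 1.81 (SE 0.45, limma adjusted p 0.0399).

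KMT2C and KMT2D are the large H3K4 monomethylases of enhancers. KMT2D, at chr12:49018978-49060794, had 415 and 439 in input, 1247 and 1363 in Sfpq, 205 and 232 in Brg1, and 385, 187 and 530 in IgG. It rose by 1.61 against input (SE 0.14, limma adjusted p 7.21e-07) and by 1.95 against IgG (SE 0.40, limma adjusted p 0.0191). KMT2C, at chr7:152134925-152436003, had 347 and 362 in input, 1182 and 1133 in Sfpq, 176 and 203 in Brg1, and 249, 420 and 786 in IgG. It rose by 1.71 against input (SE 0.14, limma adjusted p 4.04e-07), while its rise of 1.41 against IgG did not pass (limma adjusted p 0.0791). Parts of KMT2C have near-identical copies elsewhere in the genome, so its share is uncertain by whatever reads the counting split between them.

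NSD1, the H3K36 methyltransferase mutated in Sotos syndrome, was the member with the smallest adjusted p against IgG. It had 260 and 285 RPM in input, 800 and 744 in Sfpq, 154 and 143 in Brg1, and 203, 207 and 293 in IgG. Here the IgG libraries were close together and close to input. It rose by 1.5 against input (SE 0.13, limma adjusted p 8.82e-07) and by 1.74 against IgG (SE 0.25, limma adjusted p 0.0035). SETD1B (1.59) and KMT2E (1.53), an H3K4 methyltransferase and a SET-domain protein of the same family, lay between KMT2D and NSD1, and SETD2 rose by 1.32. The plain rows of KMT2A, KMT2C, KMT2D, SETD1B, KMT2E and NSD1 stood between percentiles 96.5 and 99.2 of all plain rows in this comparison. EHMT2 (0.24, limma adjusted p 0.148) and SETD3 (0.15, limma adjusted p 0.447) were the 2 writers that did not pass. SETD3 mainly methylates actin rather than histones.

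In the Polycomb group the plain rows of JARID2 and SUZ12 rose most. JARID2, the complex 2 cofactor that helps to recruit it, had 47.1 and 47.5 in input, 116 and 119 in Sfpq, 26.8 and 34.9 in Brg1 and 71.4, 106 and 97.8 in IgG, so that IgG too lay above both inputs. It rose by 1.30 in Sfpq against input (SE 0.15, limma adjusted p 7.81e-06) and stood at 0.38 against IgG (limma adjusted p 0.52). SUZ12, the core subunit of complex 2, rose by 1.23 (SE 0.19, limma adjusted p 6.38e-05), from 25 and 37.7 to 74.7 and 70.7. SUZ12 has a close pseudogene copy, SUZ12P1, with a plain row at 17.7 and 15.8 in input and 14.9 and 19.0 in Sfpq. SUZ12P1.primary was larger, at 88.8 and 79.2 in input, 51.4 and 60.25 in Sfpq and 44.2 and 49.1 in Brg1. In LNCaP it was at 68.5 and 52.2 in input and 25.1 and 34.2 in Brg1. How reads were split between the copies is not given in the sources used here, which limits both SUZ12 rows in every comparison. The catalytic subunit EZH2 rose by 0.78 (SE 0.15, limma adjusted p 0.000537), whereas its alternative EZH1 was at -0.05 (SE 0.15, limma adjusted p 0.803). PHF19 (-0.24), RING1 (-0.36), EED (0.49) and PCGF3 (0.31) did not pass either. The remaining plain rows that rose here were CBX8, RNF2, BMI1 (0.59), MTF2 and RBBP4, by 0.41 to 0.92.

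Among the erasers the plain rows of KDM5A (1.32), an H3K4 demethylase, and KDM2A (1.20), an H3K36 demethylase that also binds CpG islands, rose most in Sfpq. KDM5A went from 127 and 130 RPM in input to 338 and 303 in Sfpq, with 60.6, 200.4 and 171 in IgG. The Sfpq libraries overlapped neither group, and the change against IgG, 1.32, did not pass (limma adjusted p 0.132). KDM3B and KDM5B rose by 1.02 each and were the erasers that also passed against IgG, at 1.63 (SE 0.38, limma adjusted p 0.0308) and 1.74 (SE 0.39, limma adjusted p 0.0272). KDM1A, the flavin-dependent H3K4 demethylase LSD1, was at 0.24 (SE 0.14, limma adjusted p 0.14), and KDM4C at 0.23 (limma adjusted p 0.331).

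Of the 38 .primary rows, 6 rose and 26 fell in Sfpq against input, where 11.8% of all .primary rows rose and 50.7% fell. The members' median was -0.77, against -0.54 over all .primary rows. EED, the subunit of complex 2 that reads its mark, fell furthest, by 1.79 on the log2 scale (SE 0.22, limma adjusted p 1.18e-05), from 30.6 and 27.2 in input to 6.44 and 9.79 in Sfpq. The .primary rows of MTF2, a complex 2 cofactor, KDM5A, KDM3A and SETD2 fell by 1.34 to 1.37. Other .primary rows that fell in Sfpq were ASH2L (-1.24), SUZ12 (-1.22), KMT2A (-1.03), KDM5B (-0.74), EZH2 (-0.59), KMT2D (-0.59) and EZH1 (-0.54). The .primary rows of SETD2, KMT2E and SETD5 also fell against IgG, by 1.67, 1.37 and 1.30 (limma adjusted p 0.03, 0.0498 and 0.0374).

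The 6 .primary rows that rose in Sfpq were KDM6B (1.84), KDM4B (1.61), BMI1 (1.19), PCGF3 (1.15), DOT1L (1.10) and EHMT1 (0.64). KDM6B, the H3K27 demethylase JMJD3, had 15.4 and 17.7 RPM in input, 46.6 and 78.2 in Sfpq, 15.1 and 18.1 in Brg1 and 0, 0.571 and 14.3 in IgG. The Sfpq libraries differed from each other by more than the inputs did but lay above all others (SE 0.22, limma adjusted p 7.99e-06). In IgG replicate A the row had 0 reads and in replicate B 1, where 3 reads would be 0.678 and 1.71 RPM. KDM4B, an H3K9 demethylase, had 130 and 110 in input, 306 and 440 in Sfpq, 329 and 335 in Brg1 and 224, 185 and 165 in IgG (SE 0.16, limma adjusted p 2.62e-06 for Sfpq against input). It was thus above input in both precipitates and, less so, in IgG.

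The calls of Sfpq against input rest on a fit without IgG. With the IgG libraries in it 0 members passed in limma (19 at an unadjusted p under 0.05; edgeR and DESeq2, run without IgG, each called 69), and on the deposited scaling, where the median over all rows was -0.72 rather than -0.19, 26 passed, 4 higher and 22 lower.

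Brg1 against input gave the opposite picture in the plain rows. Of the 42, 0 rose and 35 fell (limma adjusted p under 0.05; 35 at an unadjusted p under 0.05; edgeR called 0 higher and 26 lower, DESeq2 0 and 29). Over all plain rows 2.41% rose and 74% fell, so the members' share is near the background. Their median was -0.67, against -0.80 for all plain rows. Writers fell in 17 of 18 plain rows, Polycomb genes in 10 of 13 and erasers in 8 of 11.

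The 2 plain rows that fell furthest belong to Polycomb repressive complex 1. BMI1, the PCGF subunit known as an oncogene and stem cell factor, lies at chr10:22321099-22331706. Its plain row had 25.3 and 29.1 RPM in input, 6.86 and 7.98 in Brg1 and 44.1 and 38.2 in Sfpq. In IgG it was at 1.81, 0.571 and 79.5, a spread wider than any other group. BMI1 fell in Brg1 by 1.81 (SE 0.18, limma adjusted p 1e-06). RNF2, the ubiquitin ligase of the same complex, had 15.1 and 17.1 in input and 3.77 and 5.33 in Brg1, and fell by 1.73 (SE 0.24, limma adjusted p 1.72e-05). Among writers SETD3 fell most, by 1.30 (SE 0.17, limma adjusted p 1.03e-05), from 43.7 and 47.3 to 18.1 and 18.3, and among erasers KDM6B, by 1.20 (SE 0.14, limma adjusted p 3.78e-06). The plain rows of the writers SETD1B (-1.14), KMT2D (-0.97), NSD1 (-0.88), KMT2A (-0.69), SETD2 (-0.47) and ASH1L (-0.37) fell as well. So did those of SUZ12 (-1.14), EZH2 (-0.67), KDM2A (-0.92) and KDM1A (-0.45). The 7 plain rows that did not pass were EZH1 (-0.21), EED (-0.11), PCGF3, ASH2L, KDM5B (-0.23), KDM4B (-0.06) and KDM4C (-0.12), at -0.27 to 0.00 on the log2 scale.

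In the .primary rows 9 of 38 members rose in Brg1 and 5 fell, where 50.9% of all .primary rows rose and 9.48% fell. Their median was -0.01, against 0.54 over all .primary rows. In 22Rv1, 4 members rose by more than 1 on the log2 scale. KDM4B, at chr19:4969113-5153598, rose by 1.46 (SE 0.16, limma adjusted p 2.73e-06) with the values given above. KDM4C, its paralog at chr9:6720863-7175648, had 31.4 and 23.7 in input, 73.7 and 73.6 in Brg1, 13.2 and 16.6 in Sfpq, and 30.7, 41.7 and 0 in IgG. It rose by 1.42 (SE 0.18, limma adjusted p 8.16e-06), and Brg1 lay above every other library. In the IgG library at 0, 3 reads would be 6.11 RPM.

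JARID2.primary, from chr6:15246069-15522042, had 213 and 194 RPM in input, 513 and 480 in Brg1, 206 and 248 in Sfpq, and 283, 238 and 120 in IgG. Brg1 again lay above every other library. It rose by 1.29 against input (SE 0.14, limma adjusted p 1.96e-06). Against IgG it stood at 1.30 (SE 0.37), short of the threshold (limma adjusted p 0.0718). SETD3.primary, from chr14:99397748-99486458, had 83.8 and 85.4 in input and 196 and 207 in Brg1, a rise of 1.25 (SE 0.14, limma adjusted p 2.06e-06). Its IgG libraries were at 194, 232 and 114, which overlaps Brg1, and Brg1 stood at 0.22 against IgG (SE 0.35, limma adjusted p 0.735). Among all .primary rows these 4 rises ranked between percentiles 77.5 and 85.3.

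The other .primary rows that rose in Brg1 were SETD5 (0.64), PCGF3 (0.51), EHMT1 (0.44), RNF2 (0.42) and KDM3A (0.41). The 5 that fell were RBBP4, EHMT2 (-0.70), KMT2B (-0.50), SUZ12 (-0.48) and KMT2D (-0.35). RBBP4, a histone chaperone shared by complex 2 and other complexes, fell by 1.12 (SE 0.18, limma adjusted p 8.04e-05), from 46.8 and 43.3 to 19.4 and 21.4 RPM. That places it at percentile 1.11 of all .primary rows. EZH2.primary, at 0.08 (SE 0.13, limma adjusted p 0.617), and SETD2.primary, at -0.03 (SE 0.13, limma adjusted p 0.869), did not pass. Neither did the .primary rows of KDM5B (0.34), BMI1 (0.28), KMT2A (0.21), KDM6B (0.01), KDM3B (-0.10) and KDM4A (-0.28).

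The direction of the .primary rows as a group depended on scaling: 19 of 38 members were above 0 in shares, 27 after TMM scaling and 8 on the deposited scaling, where 0 rose and 1 fell (limma; 5 at an unadjusted p under 0.05). With the IgG libraries in the fit 0 of the 80 members passed in limma (6 at an unadjusted p under 0.05), and in fits without them edgeR called 40 (13 higher and 27 lower) and DESeq2 41 (11 and 30), beside 49 (9 and 40) in limma.

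**Figure D2:**
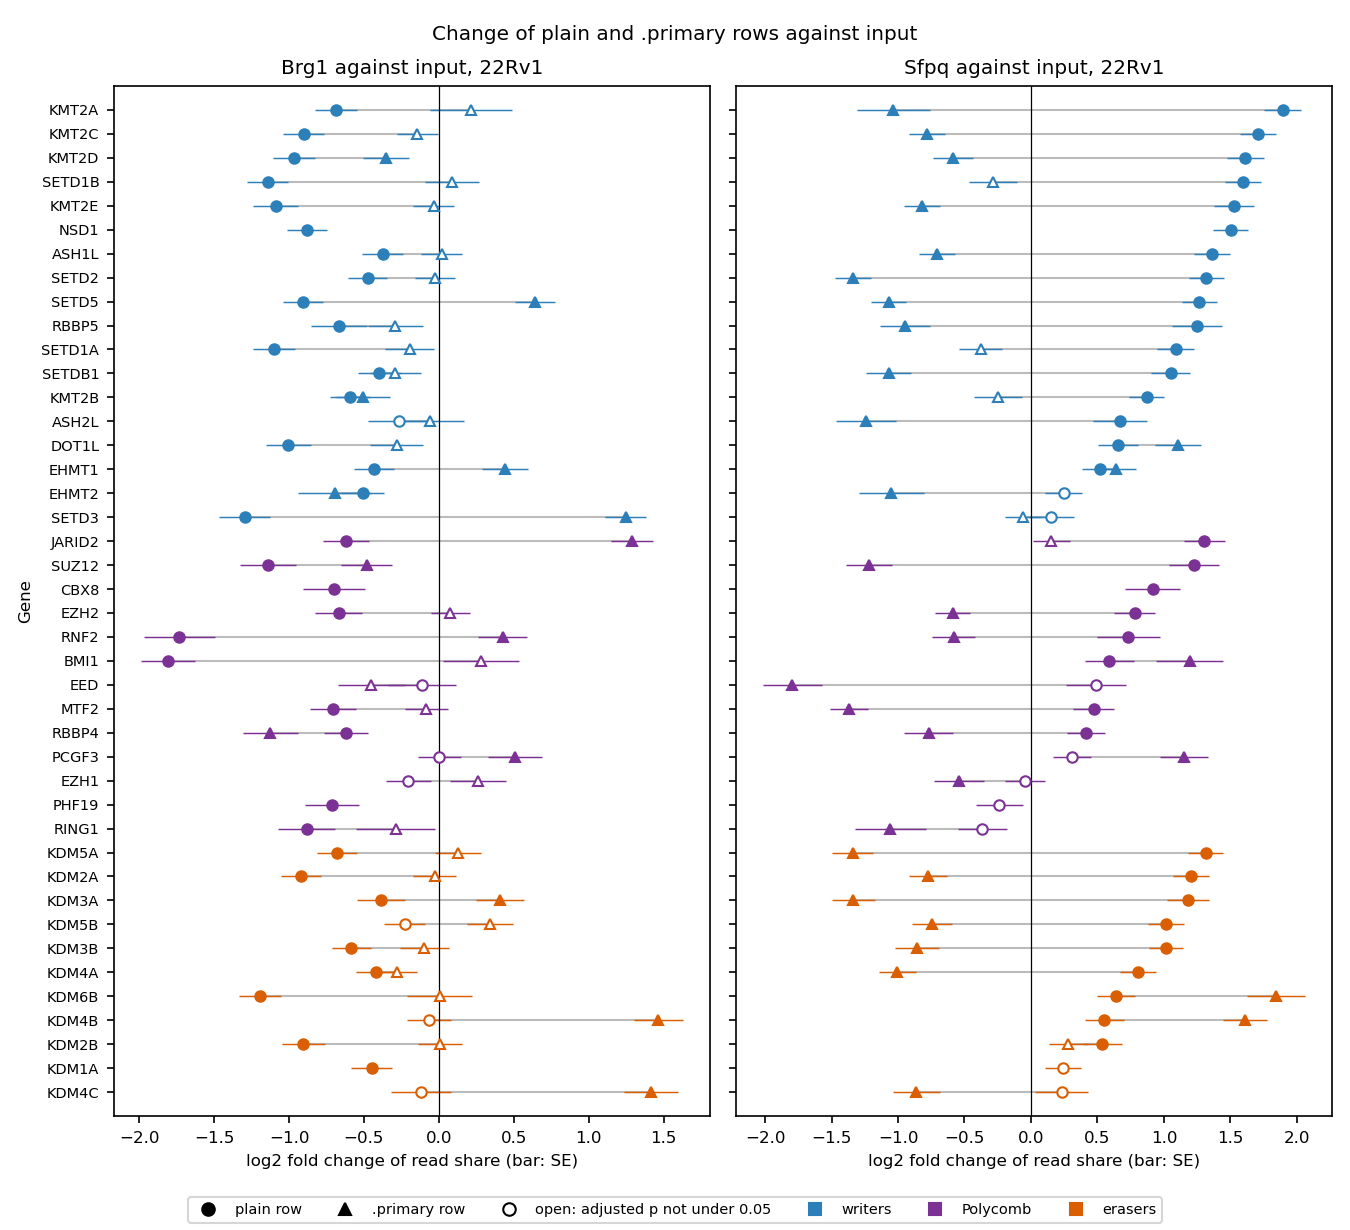
Log2 fold change of read share (axis in log2 units, bars SE) for each gene in 22Rv1, Brg1 against input on the left and Sfpq against input on the right, with circles for plain rows, triangles for .primary rows and open symbols where the limma adjusted p is not under 0.05. In Sfpq most circles lie to the right of 0 and most triangles to the left. KDM6B, KDM4B, PCGF3, BMI1 and DOT1L have the triangles furthest right there. In Brg1 most circles lie to the left, and 19 of the 38 triangles lie right of 0. On the deposited scaling, which is not drawn, 8 .primary rows were above 0 in Brg1.

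The balance between the 2 rows of a gene, the log2 ratio of .primary to plain reads, does not depend on library size. It rose in Brg1 against input for 19 of 38 members and fell for 0 (limma adjusted p under 0.05; 19 at an unadjusted p under 0.05), where 64.3% of all 8246 genes with both rows rose and 0.594% fell. The members' median was 0.74 and that of all such genes 1.16. SETD3 had the largest rise, 2.57 (SE 0.31, limma adjusted p 5.01e-05): its .primary row took 65.7% and 64.4% of the gene's reads in input, 91.5% and 91.9% in Brg1, 56.2% and 66.8% in Sfpq, and 94.2%, 99.5% and 67.5% in IgG. RNF2 (2.27), BMI1 (2.17) and JARID2 (1.92) followed. Without Brg1 replicate A or input replicate B 9 members passed, and without input replicate A 12.

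In Sfpq the balance fell for 29 members and rose for 3, where 55.4% of all genes fell and 8.96% rose (median -1.80 for members, -0.97 for all). KMT2A fell furthest, by 3.0 (SE 0.48, limma adjusted p 0.000365), its .primary row going from 3.34% and 2.22% of the gene's reads in input to 0.288% and 0.412%. That row held only 25 and 35 reads in the Sfpq libraries, beside 8658 and 8463 in the plain row. SETD2, the main writer of H3K36 trimethylation, fell by 2.67 (SE 0.27, limma adjusted p 9.58e-05), from 42.9% and 41.4% to 10.1% and 10.5%. The 3 that rose were KDM6B (1.23), KDM4B (1.06) and PCGF3 (0.85). KDM6B.primary took 18.5% and 22.1% of the gene's reads in input and 31.2% and 43.9% in Sfpq, so neither Sfpq library overlapped the inputs.

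**Figure D3:**
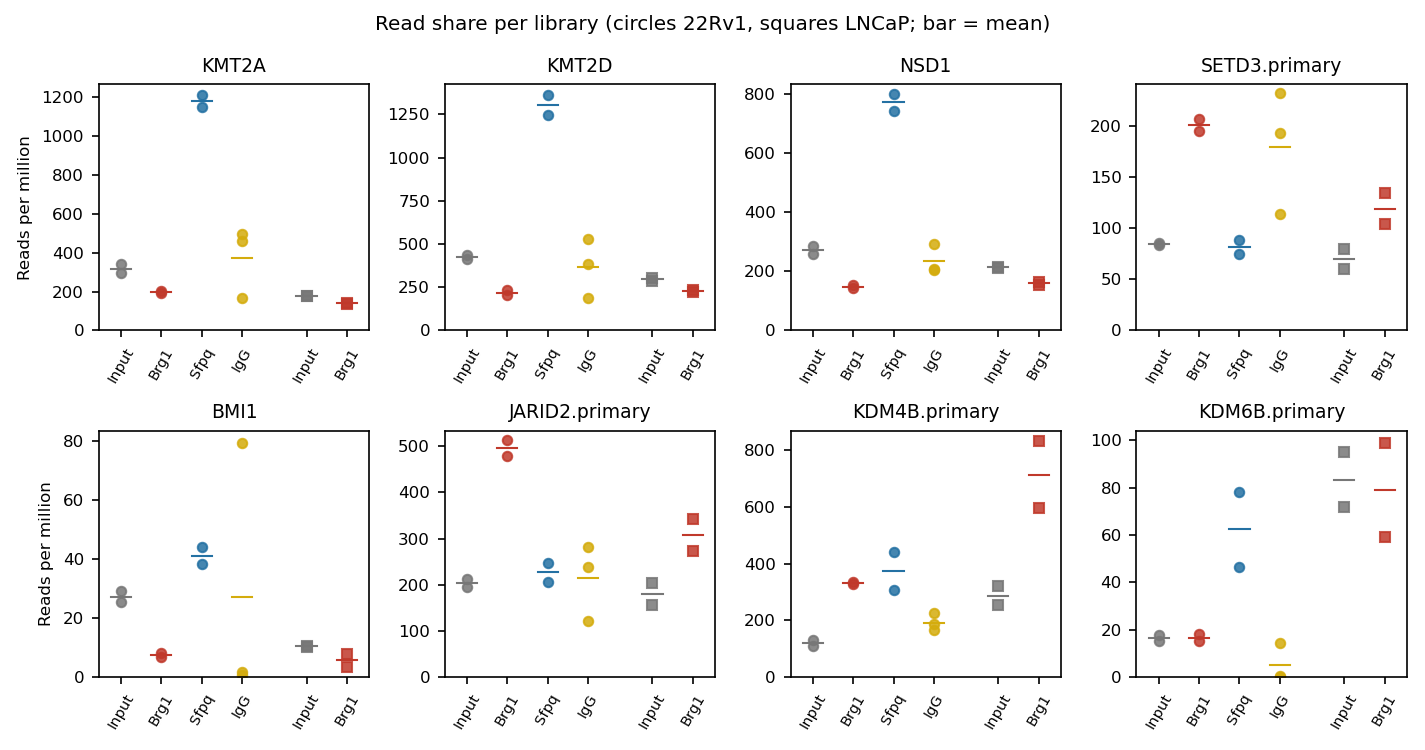
Read share (RPM) of 8 rows in every 22Rv1 library (circles) and in the LNCaP input and Brg1 libraries (squares), with bars at the group means. Sfpq stands highest for the plain rows of KMT2A, KMT2D and NSD1, Brg1 stands highest for JARID2.primary, and the IgG libraries reach 232 RPM for SETD3.primary and 79.5 for BMI1.

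Set directly against each other in 22Rv1, Brg1 was below Sfpq in 39 of 42 plain rows and above it in 0 (limma adjusted p under 0.05; 39 at an unadjusted p under 0.05; edgeR called 0 higher and 37 lower, DESeq2 0 and 40). Over all plain rows 70.7% were lower and 4.95% higher. SETD1B (-2.74), KMT2E (-2.61), KMT2C (-2.61), KMT2D (-2.58) and KMT2A (-2.58) were furthest apart. Of the .primary rows 25 of 38 were higher in Brg1 and 4 lower, beside 72.6% and 7.94% of all .primary rows. KDM4C (2.28), KDM3A (1.74) and SETD5 (1.71) were highest in Brg1, and KDM6B (-1.84), DOT1L (-1.39), BMI1 (-0.91) and PCGF3 (-0.65) were the 4 lower. KDM4B.primary did not pass (-0.15, SE 0.16, limma adjusted p 0.429). With the IgG libraries in the fit 8 plain rows were lower in Brg1 and 0 .primary rows passed in either direction (limma; 27 of the 80 rows at an unadjusted p under 0.05). On the deposited scaling 30 plain rows were lower, and 13 .primary rows were higher and 2 lower.

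The non-specific antibody gave the background. In IgG against input 0 of the 80 member rows passed in limma (6 at an unadjusted p under 0.05; edgeR called 0 and DESeq2 2), where 0.0553% of all plain rows rose and 8.07% fell, and 0.633% of all .primary rows rose and 7.77% fell. The largest fitted rises were those of SETD3.primary (1.02, SE 0.35, limma adjusted p 0.143) and JARID2 (0.93, SE 0.35, limma adjusted p 0.194). Fitted falls were larger, down to -4.225 in the plain and -3.988 in the .primary rows. The members' median was -0.65 for the plain and -0.11 for the .primary rows, beside -1.46 and -0.76 over all rows of each kind. The balance passed for 0 of 38 members in IgG (limma; 1 at an unadjusted p under 0.05), and for 0% of all genes. IgG replicate C, with the fewest reads, weighed most on these counts: without it 16 members passed in IgG against input, without replicate A 7 and without replicate B 2. All 80 member rows were called lower in IgG than in input on the deposited scaling.

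Against IgG, in shares, 0 members rose in Brg1 and 2 fell (9 at an unadjusted p under 0.05; edgeR called 2 and DESeq2 5, all lower): the plain rows of JARID2 (-1.55, SE 0.35, limma adjusted p 0.0274) and SETD5 (-1.34, SE 0.22, limma adjusted p 0.00643). SETD5, a SET-domain protein whose loss causes a neurodevelopmental disorder, had 128 and 143 RPM in Brg1, 304, 380 and 346 in IgG and 253 in both inputs. Brg1 was below every library of the other groups. Of all plain rows 6.18% rose and 1.66% fell against IgG, and of all .primary rows 9.59% and 0.248%. In shares 48 of the 80 member rows were above 0. The members' median was 0.063 for the plain and 0.31 for the .primary rows, beside 0.64 and 1.29 over all rows of each kind. Without IgG replicate A 16 members passed, 6 of them higher, without replicate B 7, 1 of them higher, and without replicate C 14, 8 of them higher. Without either Brg1 library 0 passed, and without any 1 of the Sfpq or input libraries 1 did. On the deposited scaling the direction turned for 32 of the 80 member rows, the plain rows of JARID2 and SETD5 included. There all 80 were called higher in Brg1 than in IgG, with a median of 6.86 for the plain and 7.39 for the .primary rows.

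In Sfpq against IgG, 10 of 42 plain rows rose and 0 fell, beside 9.97% and 0.249% of all plain rows, and 0 of 38 .primary rows rose and 3 fell, beside 7% and 2.82%. The members' plain median, 1.61, was close to that of all plain rows, 1.60. Of the 10 rises 8 were writers (NSD1, KMT2D, SETD1A, KMT2A, SETD2, ASH1L, SETDB1 and SETD1B) and 2 were erasers (KDM3B and KDM5B). Leaving out a single library moved the 13 calls to between 0, without Sfpq replicate A, and 39, without IgG replicate C; they were 1 without Sfpq replicate B, 24 and 25 without IgG replicates A and B, and 3 without any 1 of the Brg1 or input libraries. All 80 member rows, those 3 .primary rows included, were called higher in Sfpq than in IgG on the deposited scaling, with a median of 8.52 for the plain and 6.51 for the .primary rows.

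LNCaP allows the same question for Brg1 in a line whose table was scaled separately from that of 22Rv1. Of 41 plain rows 0 rose and 6 fell in Brg1 against input (limma adjusted p under 0.05; 8 at an unadjusted p under 0.05; edgeR called 3 lower and DESeq2 4), where 2.1% of all plain rows rose and 20.1% fell. The 6 were BMI1 (-0.93), SUZ12 (-0.81), KMT2E (-0.79), KDM6B (-0.77), SETD3 (-0.69) and DOT1L (-0.64). BMI1, with 10.5 and 10.3 RPM in input and 7.70 and 3.46 in Brg1, showed no overlap, but its Brg1 libraries were far apart. Its SE of 0.34 (limma adjusted p 0.0267) was taken from rows of similar share rather than from these libraries. KDM6B went from 153 and 154 to 96.0 and 84.5 (SE 0.26, limma adjusted p 0.0159). All 6 had fallen in 22Rv1 too. Plain rows of LNCaP that did not pass included, among the writers, NSD1 (-0.42), KMT2D (-0.37), KMT2A (-0.35), SETD2 (-0.12), EHMT2 (-0.02) and ASH2L (0.12). Among the Polycomb genes they included EZH1 (0.01), EZH2 (0.14) and PCGF3 (0.39), and among the erasers KDM5A (-0.46), KDM1A (0.14), KDM5B (0.24) and KDM4B (0.31).

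Among the 38 .primary rows of LNCaP 4 rose and 3 fell, where 23.1% of all .primary rows rose and 8.19% fell. The 4 were the same as the 4 largest in 22Rv1: KDM4B, JARID2, SETD3 and KDM4C. KDM4B.primary had 320 and 254 RPM in input and 596 and 831 in Brg1, a rise of 1.30 (SE 0.27, limma adjusted p 3.15e-05). Its lower Brg1 library was above both inputs. JARID2.primary went from 204 and 155 to 273 and 343 (0.78, SE 0.26, limma adjusted p 0.0155), SETD3.primary from 79.4 and 60.1 to 104 and 135 (0.77, SE 0.26, limma adjusted p 0.0146), and KDM4C.primary from 66.8 and 60.5 to 96.9 and 113 (0.72, SE 0.26, limma adjusted p 0.0252). RBBP4.primary fell by 1.16 (SE 0.26, limma adjusted p 0.000211), and KMT2B and SUZ12 fell by 0.78 and 0.65 (limma adjusted p 0.0166 and 0.0447). The .primary rows that did not pass included PCGF3 (0.57), EHMT1 (0.39) and KDM5B (0.13) above 0, and CBX8 (-0.997), KMT2D (-0.58), KDM4A (-0.53), KDM3B (-0.38), SETD2 (-0.29), KMT2A (-0.12), KDM6B (-0.11) and EZH2 (-0.04) below it.

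On the deposited scaling of LNCaP, where the median over all rows was -1.46 rather than -0.09, all 79 member rows were below 0, with KDM4B.primary at -0.07, JARID2.primary at -0.59, SETD3.primary at -0.60 and KDM4C.primary at -0.65. The 13 calls became 0 without input replicate A (6 at an unadjusted p under 0.05), 1 without input replicate B, 10 without Brg1 replicate B, only 1 of them higher (KDM4B.primary, at 1.06), and 0 with the IgG libraries in the fit (3 at an unadjusted p under 0.05), while edgeR and DESeq2 on all Brg1 and input libraries each called 10, 5 higher and 5 lower.

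Across the 2 lines, 6 of 41 plain members were called lower in both by limma (14.6%), beside 19.8% of the 9377 plain rows that both lines share. Of the 37 .primary members 4 were higher in both (10.8%) and 3 lower in both (8.11%), beside 22.7% and 5.3% of the 10022 shared .primary rows. In opposite directions 0 members were called, beside 0.373% of the plain and 0.0898% of the .primary rows. Over the members the fold changes of the lines had a Pearson r of 0.76 (n = 41 plain rows) and 0.93 (n = 37 .primary rows), beside 0.69 and 0.84 over all shared rows. Rows are not independent replicates, so these are descriptions. The balance passed for a single member in LNCaP, SETD3 (1.48, SE 0.47, limma adjusted p 0.0164), where 13% of all genes rose and 0.976% fell. Its .primary row took 72.9% and 63.2% of the gene's reads in input and 81.7% and 88.9% in Brg1. The call of SETD3 was lost without either input library, and without Brg1 replicate B the single member that passed had a lower balance.

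**Figure D4:**
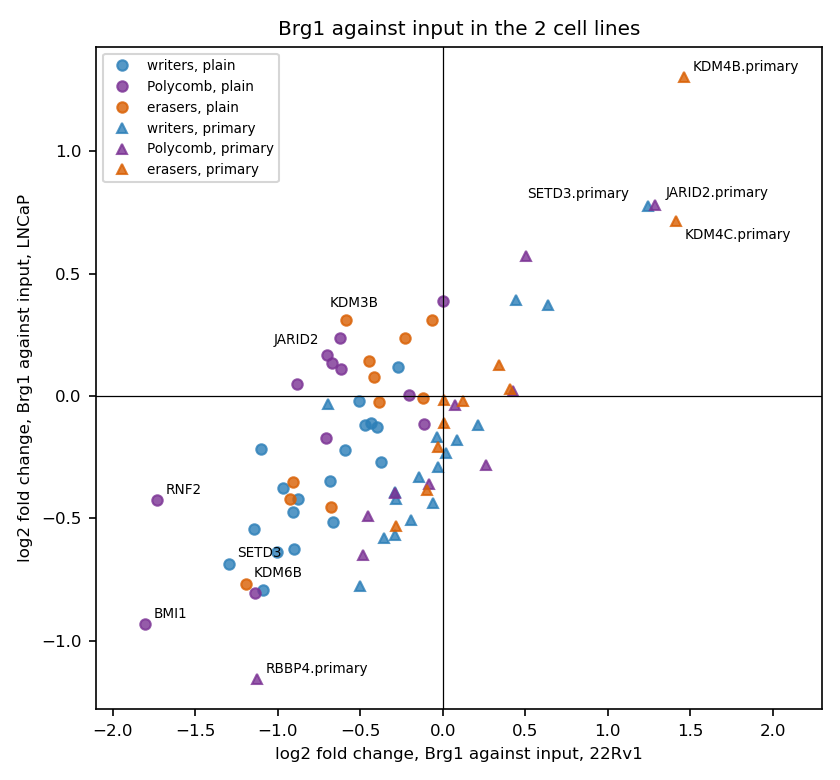
Log2 fold change of Brg1 against input in read shares for each member row, 22Rv1 on the horizontal and LNCaP on the vertical axis (both in log2 units), circles for plain and triangles for .primary rows, colored by role. KDM4B.primary, JARID2.primary, SETD3.primary and KDM4C.primary lie apart at the upper right (on the deposited scaling their LNCaP values are below 0), and BMI1 and RBBP4.primary lie at the lower left.

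The LNCaP IgG libraries were too shallow for a test of single rows. The 79 member rows held 159 reads in replicate A and 241 in replicate B, and 36 and 29 of them had 0 reads. In these libraries 3 reads equal 135 and 64.8 RPM, and 63 and 56 of the rows were at or under that level, which a row of 0 reads allows. The summed share of the members was 7167 and 5206 RPM in IgG, 5861 and 6686 in Brg1 and 6661 and 5925 in input, and the groups overlapped.

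Gene length moved with the .primary changes in Brg1. Over the 38 .primary member rows, Pearson r between the length of the gene and the log2 fold change against input was 0.52 in 22Rv1 and 0.57 in LNCaP, and over all .primary rows with a length 0.49 and 0.39. For Sfpq it was 0.0074 over the member .primary rows and 0.024 over all .primary rows with a length. In the plain rows of Sfpq it was 0.32 over the 42 members and 0.47 over all plain rows with a length. Plain rows of Brg1 gave 0.25 and 0.21 in 22Rv1 and 0.0031 and 0.055 in LNCaP. KDM4C (455 kb), JARID2 (276 kb) and KDM4B (184 kb) are among the longer genes, while SETD3 spans 88.7 kb and KMT2C, at -0.14 in Brg1 (.primary row, limma adjusted p 0.357), spans 301 kb. The part of length in the changes was not tested.

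The other genes of the pathway were read from a list of 53. In Brg1 against input of 22Rv1, 0 of 51 plain rows rose and 40 fell, and 21 of 47 .primary rows rose and 3 fell, beside the 2.41% and 74% of all plain rows and the 50.9% and 9.48% of all .primary rows given above. RYBP, a subunit of noncanonical forms of complex 1, fell by 3.56 (SE 0.25, limma adjusted p 6.44e-08), the most of these, from 17.2 and 20.8 RPM to 1.52 and 0.840, and it fell in LNCaP as well, by 1.51. The .primary rows of SMYD3 (1.74) and SMYD2 (1.60), methyltransferases of the SMYD family, rose most in 22Rv1, and SMYD3.primary rose in LNCaP by 1.30 (SE 0.26, limma adjusted p 1.52e-05). In Sfpq against input 30 of 51 plain rows rose and 3 fell, and 5 of 47 .primary rows rose and 32 fell, beside 37.9% and 20.1% of all plain rows and 11.8% and 50.7% of all .primary rows. NCOA6, a subunit of the KMT2C and KMT2D complexes, rose most, by 2.06 (SE 0.13, limma adjusted p 6.86e-08), from 71.7 and 78.8 to 302 and 327 RPM. DPY30, the smallest core subunit of the KMT2 complexes, fell in both rows in Sfpq, by 0.91 (plain) and 1.45 (.primary).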

How the data were processed

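The authors deposited 1 table per cell line whose unit is a signal, normalized counts per row, and per the submitters' processing notes STAR 2.6, Salmon 0.8.2, deepTools 2.5.2 and DESeq2 were used with build hg38; their roles and the choice of scaling factors are not given in the sources used here. Division by the smallest positive value of a library gave whole numbers within 0.001 for 100% of its values, and these were taken as reads. Fits used limma 3.58.1 in R 4.3.3 (lmFit, eBayes with trend) on log2(RPM + 0.5), RPM being reads in every 1000000, on rows with a mean share of at least 1 RPM, with Benjamini-Hochberg adjustment over all rows of a table. Brg1, Sfpq and input of 22Rv1 shared a fit, IgG contrasts used all 22Rv1 libraries, and LNCaP used Brg1 and input. With eBayes and its trend, the SE of a row leans on other rows of similar share. In LNCaP the SE hardly followed a row's own libraries. KDM6B (plain) and KDM4B.primary had SE 0.257 and 0.266 there, although the Brg1 libraries of KDM4B.primary lay further apart. The balance was log2((.primary reads + 0.5)/(plain reads + 0.5)). The fits were tested on simulated data in which all libraries shared the same spread beyond counting error. Such data cannot show how the fits handle a wider spread in the IgG libraries.

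Alternatives were pseudocounts of 0.1 and 2, no filter or a mean share of 5, TMM and median-of-ratios scaling, the deposited values, other sets of libraries, eBayes without trend, a block on the replicate letter, edgeR 4.0.16, DESeq2 1.42.0, summed rows and leaving out each library. Blocks with crossed letters were added after seeing the data. Positions came from RefSeq (GRCh38.p14) and matched all 42 members by symbol. Named in the text are, per role and kind of row, the 2 largest and 2 smallest fold changes against input and 11 listed genes, and other rows where a count is broken down. The members and lists were chosen with earlier results of these data known. Floors of 3 reads cover counting error only, since the sources used here name no molecular identifiers.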

Additional observations from a re-analysis of the deposited data

Results flagged for a closer look

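In Brg1 against input, 3 member rows had fold changes of opposite sign in 22Rv1 and LNCaP, with both Brg1 libraries on one side of both inputs in each line; the difference between the lines was not tested. They were 2 of 41 plain and 1 of 37 .primary members (4.88% and 2.7%), and the same held for 9% of the 9377 plain and 1.84% of the 10022 .primary rows of all genes that both lines share. The plain row of JARID2 was at -0.62 in 22Rv1 and at 0.24 in LNCaP, the plain row of KDM3B at -0.59 (-0.585) and 0.31, and EZH1.primary at 0.26 and -0.28. Only the 22Rv1 values of JARID2 and KDM3B passed in limma.

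The .primary to plain balance was opposite in the same way, also not tested, for EZH1 (0.48 in 22Rv1 and -0.30 in LNCaP), RING1 (0.60 and -0.48, or -0.475) and KDM3B (0.49 and -0.70). The 3 were 8.11% of 37 members, beside 4.85% of all 6932 genes with a balance in both lines. None of these 6 balances passed in limma.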

How the results depend on the processing

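Pseudocounts of 0.1 and 2 and no filter kept every count of calls within 1.5 times. With the IgG libraries in the fit, 0 members passed in Brg1 and 0 in Sfpq against input in 22Rv1, 0 in Brg1 against input in LNCaP, and 8, all lower, in Brg1 against Sfpq. On the deposited scaling 21 were called in Brg1 against input in 22Rv1, all lower, 26 in Sfpq against input, 4 higher and 22 lower, 76 in LNCaP, all lower, and 45 in Brg1 against Sfpq, 13 higher and 32 lower. There all 80 were called higher in Brg1 and all 80 higher in Sfpq against IgG, and all 80 lower in IgG against input. With the plain and .primary reads of a gene summed, 36 genes passed in Brg1 against Sfpq, 32 in Sfpq against input, 0 in Brg1 against IgG and 5 in Sfpq against IgG. Against IgG, DESeq2 called 5 for Brg1, and eBayes without trend and a fit on only the 2 groups called 0 for Brg1 and 0 for Sfpq; for Sfpq, edgeR, median-of-ratios scaling and a mean share of at least 5 each gave 7. DESeq2 called 2 in IgG against input. The LNCaP balance passed for 0 members with eBayes without trend. In Brg1 against input of 22Rv1 the calls split into 12 higher and 26 lower after TMM and 11 and 28 after median-of-ratios scaling, beside 9 and 40; in LNCaP both gave 5 and 6, beside 4 and 9.

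Leaving out 1 library at a time gave 0 to 16 calls for Brg1 against IgG, 0 to 39 for Sfpq against IgG, 0 to 16 for IgG against input, 0 to 14 for Brg1 against input in LNCaP, 9 to 19 for the Brg1 balance in 22Rv1, 0 to 1 in LNCaP and 0 to 2 for IgG. The labels do not say whether libraries with the same replicate letter belong together. The deviations of same-lettered libraries had r = 0.0046, -0.0446 and -0.132 in 22Rv1 and -0.332 in LNCaP. With the letter as a block, 11 passed in Brg1 against IgG, 33 in Sfpq against IgG, 13 in IgG against input, 1 in LNCaP, and 1 (IgG) and 0 (LNCaP) for the balance. With the letters crossed in LNCaP, chosen after seeing the data, 39 passed, and 5 for the balance. The cause of these differences was not tested.

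Of all 80 member rows of 22Rv1 the direction of Brg1 against input turned for 12 on the deposited scaling, 13 after TMM scaling, 13 with edgeR and 10 each with DESeq2 and median-of-ratios scaling, and that of Sfpq against input for 11 on the deposited scaling and 2 under each of the others. Of the 79 rows of LNCaP it turned for 23 on the deposited scaling, 8 with edgeR and 7 under each of the others. In Brg1 against Sfpq it turned for 0 under any of these. It turned for 32 in Brg1 against IgG, 23 in Sfpq against IgG and 23 in IgG against input on the deposited scaling, and under the others for 5 to 27, 2 to 9 and 16 to 28. The lists that follow hold only the rows that the rule on named rows selects. First, on the deposited scaling, the direction of Brg1 against input in 22Rv1 turned for BMI1.primary (-0.13), EZH1.primary (-0.16), EZH2.primary (-0.35), KDM5B.primary (-0.082), KDM6B.primary (-0.42), KMT2A.primary (-0.20), PCGF3 (-0.42). On the deposited scaling, the direction of Brg1 against input in LNCaP turned for ASH2L (-1.25), EHMT1.primary (-0.98), EZH1 (-1.37), EZH2 (-1.23), JARID2 (-1.13), JARID2.primary (-0.59), KDM1A (-1.23), KDM3B (-1.06), KDM4B (-1.06), KDM4B.primary (-0.071), KDM4C.primary (-0.65), KDM5B (-1.14), KDM5B.primary (-1.25), PCGF3 (-0.98), PCGF3.primary (-0.80), SETD3.primary (-0.60). On the deposited scaling, the direction of Sfpq against input in 22Rv1 turned for EHMT2 (-0.27), KDM1A (-0.28), KDM4C (-0.28), SETD3 (-0.37). With DESeq2 and its own size factors, the direction of Brg1 against input in 22Rv1 turned for EED (0.057), KDM3B.primary (0.090), KDM4B (0.13), KDM4C (0.069), SETD2.primary (0.16). With DESeq2 and its own size factors, the direction of Brg1 against input in LNCaP turned for EHMT2 (0.050), EZH2.primary (0.038). With DESeq2 and its own size factors, the direction of Sfpq against input in 22Rv1 turned for EZH1 (0.17). After TMM scaling, the direction of Brg1 against input in 22Rv1 turned for EED (0.11), EZH1 (0.028), KDM3B.primary (0.14), KDM4B (0.17), KDM4C (0.11), KDM5B (0.0044), SETD2.primary (0.21). After TMM scaling, the direction of Brg1 against input in LNCaP turned for EHMT2 (0.066), EZH2.primary (0.051). After TMM scaling, the direction of Sfpq against input in 22Rv1 turned for EZH1 (0.10). With edgeR and TMM, the direction of Brg1 against input in 22Rv1 turned for EED (0.10), EZH1 (0.029), KDM3B.primary (0.14), KDM4B (0.18), KDM4C (0.11), KDM5B (0.0050), SETD2.primary (0.21). With edgeR and TMM, the direction of Brg1 against input in LNCaP turned for EHMT2 (0.076), EZH2.primary (0.058), KDM6B.primary (0.0091). With edgeR and TMM, the direction of Sfpq against input in 22Rv1 turned for EZH1 (0.11). After median-of-ratios scaling, the direction of Brg1 against input in 22Rv1 turned for EED (0.066), KDM3B.primary (0.088), KDM4B (0.12), KDM4C (0.063), SETD2.primary (0.16). After median-of-ratios scaling, the direction of Brg1 against input in LNCaP turned for EHMT2 (0.043), EZH2.primary (0.028). After median-of-ratios scaling, the direction of Sfpq against input in 22Rv1 turned for EZH1 (0.17). Leaving out 1 library at a time turned the direction of Brg1 against input in 22Rv1 for EED (-0.38 to 0.15), KDM3B.primary (-0.23 to 0.032), KDM4B (-0.21 to 0.079), KDM6B.primary (-0.12 to 0.13), PCGF3 (-0.078 to 0.082), SETD2.primary (-0.094 to 0.041). Leaving out 1 library at a time turned the direction of Sfpq against input in 22Rv1 for EZH1 (-0.16 to 0.067), SETD3 (-0.053 to 0.36). Leaving out 1 library at a time turned the direction of Brg1 against input in LNCaP for ASH2L (-0.14 to 0.37), EHMT2 (-0.18 to 0.14), EZH1 (-0.094 to 0.10), EZH2 (-0.022 to 0.29), EZH2.primary (-0.23 to 0.16), KDM1A (-0.061 to 0.35), KDM5B.primary (-0.13 to 0.39), KDM6B.primary (-0.48 to 0.26), KMT2A.primary (-0.37 to 0.14), SETD2 (-0.27 to 0.038).

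Depth limits the IgG comparisons most: 1 read is worth up to 2.04 RPM in 22Rv1 IgG and 45.1 in LNCaP IgG. With 2 libraries in most groups, each row has few values of its own, and its estimated spread leans on other rows.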
